A study of Mus musculus with 6 samples.

Results

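Superoxide and hydrogen peroxide are removed by a small set of enzymes, and 9 of their genes were followed here: the glutathione peroxidases Gpx1, Gpx3, Gpx4, Gpx7 and Gpx8, the superoxide dismutases Sod1, Sod2 and Sod3, and catalase (Cat). They were taken by row name from a table of 45527 named genes, and all 9 were present. RNA had been sequenced from satellite cells, the resident stem cells of muscle, which express Pax7, in 3 control libraries and 3 libraries labelled Paxbp1-iKO. Yellow fluorescence was used to sort the cells from lower hindlimb muscle 24 h after injection of 30 µl of cardiotoxin, a snake venom toxin that destroys muscle fibres. Control mice were Pax7creER, Paxbp1flox/+ and R26R-YFP, and Paxbp1-iKO mice were Pax7creER, Paxbp1flox/flox and R26R-YFP, so controls also carried the Cre, the reporter and 1 floxed allele. Cre was driven from Pax7, and the reporter marks cells in which Cre acted. The labels do not tie a library to an animal, and p-values measure the spread between these libraries only.

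The targeted gene went against its label. Paxbp1 was at 68.6 ± 6.81 CPM (counts scaled to library size; SD, n = 3) in controls and at 110.2 ± 15.4 CPM in the libraries labelled Paxbp1-iKO, a log2 fold change of 0.68 ± 0.13 (SE; edgeR adjusted p = 0.00954). The sources used here do not say which part of the gene is floxed, so reads from outside that part cannot check the deletion. Of its 5508 exonic bases, 1142 overlap the transcript 4930404I05Rik on the opposite strand, and the libraries do not mark strand, so reads there cannot be assigned to either. For that reason the second group is called iKO-labelled throughout, and every direction below is that of the libraries labelled Paxbp1-iKO against the controls. Whether the labels of the 2 groups were exchanged cannot be told from these files, and an exchange would turn every direction printed. Pax7, the defining satellite cell marker, was at 11.3 ± 2.14 CPM in controls and 49.5 ± 1.70 CPM in iKO-labelled libraries. Library totals ran from 23327359 to 28050748 counts, and none of the 6 libraries duplicated another. In bulk RNA, fewer cells of a type and less RNA per cell cannot be told apart.

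Superoxide dismutases turn superoxide into hydrogen peroxide, which catalase and the glutathione peroxidases then reduce to water. The enzymes are divided among compartments: Sod1 in the cytosol, Sod2 in the mitochondrial matrix, Sod3 outside the cell bound to matrix, Gpx1 in cytosol and mitochondria, Gpx3 secreted, Gpx7 and Gpx8 in the endoplasmic reticulum (ER), and catalase in peroxisomes. Gpx4 reduces lipid hydroperoxides in membranes and is the main brake on ferroptosis, an iron-dependent death by lipid peroxidation. In muscle, oxidants are released during injury and by invading leukocytes, and these enzymes limit the damage to the stem cells.

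Within the glutathione peroxidases the catalytic residue differs, and the codon at the active site shows it. Gpx1, Gpx3 and Gpx4 have selenocysteine, written in the mRNA as a UGA codon that is read through instead of ending translation, whereas Gpx7 and Gpx8 have cysteine at the aligned place. The 39 bases around that codon are shown from the GENCODE M21 transcripts, coding strand 5′ to 3′, with the selenocysteine or cysteine codon in capitals.
Gpx1: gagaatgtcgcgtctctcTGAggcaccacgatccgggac
Gpx3: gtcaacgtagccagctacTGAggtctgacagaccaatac
Gpx4: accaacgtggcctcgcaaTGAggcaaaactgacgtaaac
Gpx7: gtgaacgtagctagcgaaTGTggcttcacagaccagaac
Gpx8: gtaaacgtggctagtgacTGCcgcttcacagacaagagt
The TGA is codon 47 of 201 in transcript Gpx1-201, codon 73 of 226 in Gpx3-201 and codon 129 of 253 in Gpx4-201. The TGT is codon 56 of 186 in Gpx7-201, and the TGC is codon 79 of 209 in Gpx8-201. These codon numbers are those of the transcripts named. On GRCm38 the TGA codons lie at chr9:108339451-108339453 for Gpx1, chr11:54907256-54907258 for Gpx3 and chr10:80054737-80054739 for Gpx4, all on the plus strand and in coding exons.

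Both extracellular enzymes rose in the libraries labelled Paxbp1-iKO, and the intracellular enzymes were divided. Of the 9 genes, 3 were higher (Gpx3, Sod3 and Gpx8), 3 were lower (Gpx4, Sod1 and Sod2) and 3 were not called (Gpx1, Gpx7 and Cat) by edgeR's quasi-likelihood test at an adjusted p under 0.05. All 9 passed the filter on low counts. Of all 16252 tested genes 20.4% were called, 8.15% higher and 12.3% lower. Groups did not overlap for 6 of the 9, against 39.8% of all tested genes; 3 of the 9 lay wholly higher, against 18.9%, and 3 wholly lower, against 20.9%. The median log2 fold change was 1.2 over the 2 extracellular genes, -0.32 over the 7 intracellular genes and 0.02 over all tested genes.

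**Figure D1:**
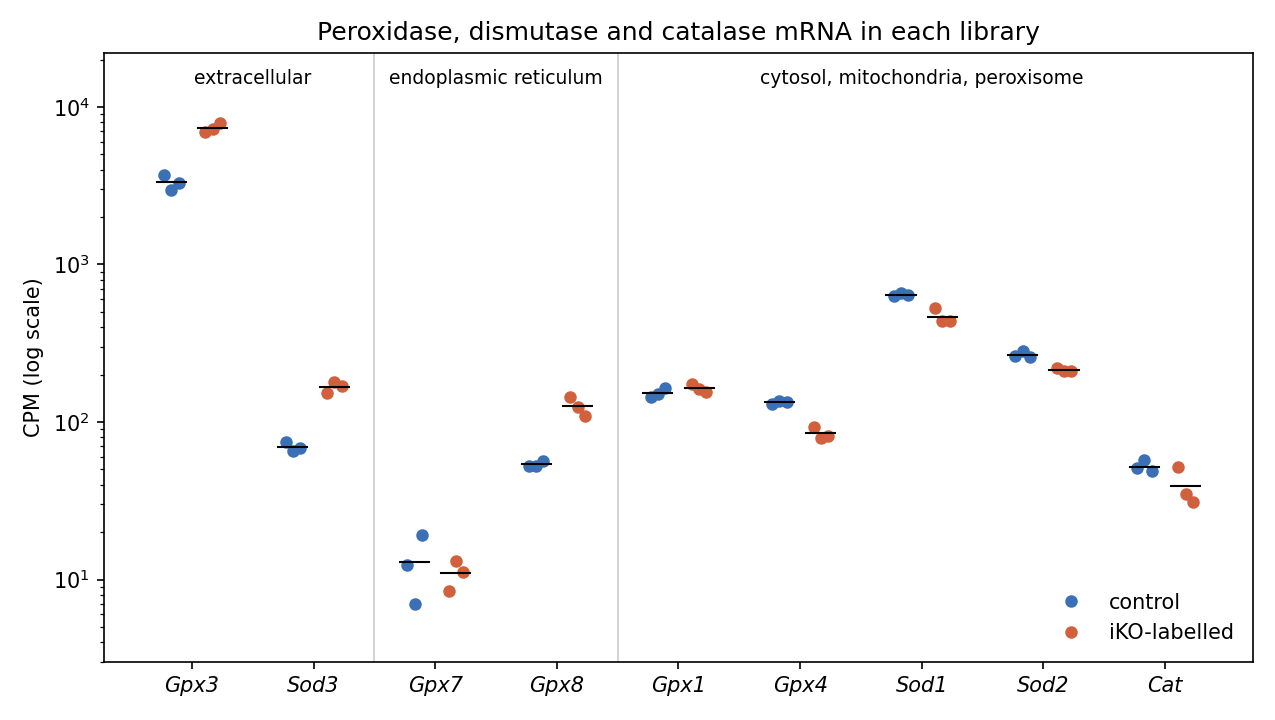
CPM (log axis) of the 9 genes in each library, with control libraries in blue, iKO-labelled libraries in orange and a black line at each group mean. The groups stand apart for Gpx3, Sod3, Gpx8, Gpx4, Sod1 and Sod2, and overlap for Gpx7, Gpx1 and Cat.

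Gpx3, the selenium-containing peroxidase secreted into plasma and the extracellular space, was by far the most abundant of the 9. It lies at chr11:54902453-54910377 on the plus strand. Gpx3 was at 3719, 2981 and 3289 CPM in the controls and at 6944, 7192 and 7918 CPM in the iKO-labelled libraries. All 3 iKO-labelled values were above the highest control. The mean went from 3330 ± 370.4 to 7351 ± 506.5 CPM, a log2 fold change of 1.14 ± 0.087 (SE; 95% interval 0.94 to 1.34; edgeR adjusted p = 0.000183), or 2.21-fold. Gpx3 alone took 0.318 ± 0.0352% of all counts in controls and 0.769 ± 0.0627% in iKO-labelled libraries. By the authors' FPKM, which divide counts by gene length and library scale, it ranked 17 of 45527 genes in controls and 4 in iKO-labelled libraries.

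Sod3, the secreted copper- and zinc-containing dismutase (chr5:52363791-52371418, plus strand), had a similar fold change from a far lower level. Control libraries had 75.2, 65.4 and 68.2 CPM, and iKO-labelled libraries had 153.9, 178.4 and 168.7 CPM. The groups did not overlap, and the lowest iKO-labelled value was above every control value. Sod3 rose from 69.6 ± 5.04 to 167.0 ± 12.4 CPM, a log2 fold change of 1.26 ± 0.10 (SE; 95% interval 1.03 to 1.5; edgeR adjusted p = 0.00021), or 2.40-fold. Its rank by FPKM moved from 3233 to 1424.

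The ER pair did not behave alike. Gpx8, a membrane protein of the ER that uses peroxide made during disulfide formation (chr13:113042753-113046410, minus strand), was at 52.4, 52.8 and 57.0 CPM in controls and at 144.5, 125.4 and 109.7 CPM in iKO-labelled libraries. All 3 iKO-labelled values lay above the controls. Gpx8 rose from 54.0 ± 2.54 to 126.5 ± 17.4 CPM, a log2 fold change of 1.23 ± 0.12 (SE; 95% interval 0.94 to 1.51; edgeR adjusted p = 0.000542). The gene lies inside Cdc20b on the opposite strand and shares 0 exonic bases with it, and Cdc20b itself had 0 to 18 counts per library. Gpx7, the soluble ER peroxidase (chr4:108400390-108406961, minus strand), was the least abundant of the 9, with 12.4, 7.04 and 19.3 CPM in controls and 8.41, 13.2 and 11.2 CPM in iKO-labelled libraries. Those ranges overlapped. The fold change of Gpx7 was -0.24 ± 0.37 on the log2 scale (95% interval -1.09 to 0.61; edgeR adjusted p = 0.717), and without control 3, which has the highest value, it was 0.19. That interval is wide enough to hold a fall by a factor of 2 and a moderate rise.

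Of the other selenium-containing peroxidases, Gpx4 fell and Gpx1 was not called. Gpx4 (chr10:80047166-80056439, plus strand) was at 130.6, 135.4 and 134.8 CPM in controls and at 92.4, 79.5 and 82.1 CPM in iKO-labelled libraries. The control values lay close together and above all iKO-labelled values. The mean of Gpx4 dropped from 133.6 ± 2.59 to 84.7 ± 6.81 CPM, a log2 fold change of -0.66 ± 0.093 (SE; 95% interval -0.87 to -0.44; edgeR adjusted p = 0.00247), which leaves 0.634 of the control level. Counts per gene do not separate its cytosolic, mitochondrial and nuclear forms. A transcribed processed pseudogene, Gpx4-ps2, is annotated on the same chromosome, and the sources used here do not say how reads matching several places were counted. Gpx1 (chr9:108338903-108340343, plus strand), the abundant cytosolic peroxidase, was at 144.1, 150.4 and 163.8 CPM in controls and at 174.0, 162.4 and 155.8 CPM in iKO-labelled libraries. Its groups overlapped, with a log2 fold change of 0.10 ± 0.088 (95% interval -0.099 to 0.31; edgeR adjusted p = 0.476).

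Sod1 and Sod2, the intracellular dismutases, both fell, by less than Gpx4. Sod1 (chr16:90220754-90226329, plus strand), the cytosolic copper and zinc enzyme, was at 632.4, 654.3 and 644.4 CPM in controls and at 525.8, 435.7 and 438.0 CPM in iKO-labelled libraries. Groups did not overlap, and iKO-labelled library 1 lay nearest to the controls. The log2 fold change of Sod1 was -0.46 ± 0.085 (SE; 95% interval -0.66 to -0.27; edgeR adjusted p = 0.00757). The Sod1 gene overlaps the end of Scaf4 on the opposite strand with 0 shared exonic bases, and lies 787.7 kb from Paxbp1 on chromosome 16.

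Sod2 (chr17:13006846-13040063, plus strand), the manganese enzyme of the mitochondrial matrix, was at 261.3, 283.4 and 258.8 CPM in controls and at 221.6, 210.6 and 209.5 CPM in iKO-labelled libraries. It had the smallest called change of the 9, -0.32 ± 0.073 on the log2 scale (SE; 95% interval -0.49 to -0.16; edgeR adjusted p = 0.0171). The call was lost without control 2 (adjusted p = 0.069), without iKO-labelled library 2 (0.0716) or 3 (0.0631), and with libraries scaled by their totals alone (fold change -0.19, adjusted p = 0.0945). The direction was the same in each.

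Cat, which encodes the peroxisomal enzyme that splits hydrogen peroxide without glutathione (chr2:103453849-103485160, minus strand), was at 50.9, 57.1 and 48.6 CPM in controls and at 51.6, 34.8 and 31.2 CPM in iKO-labelled libraries. One iKO-labelled library lay among the controls and the other two below them. The log2 fold change was -0.41 ± 0.20 (SE; 95% interval -0.87 to 0.046; edgeR adjusted p = 0.197). Without iKO-labelled library 1 it was -0.66 ± 0.15 and passed the test (adjusted p = 0.0297), so the call on Cat rests on that library.

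**Figure D2:**
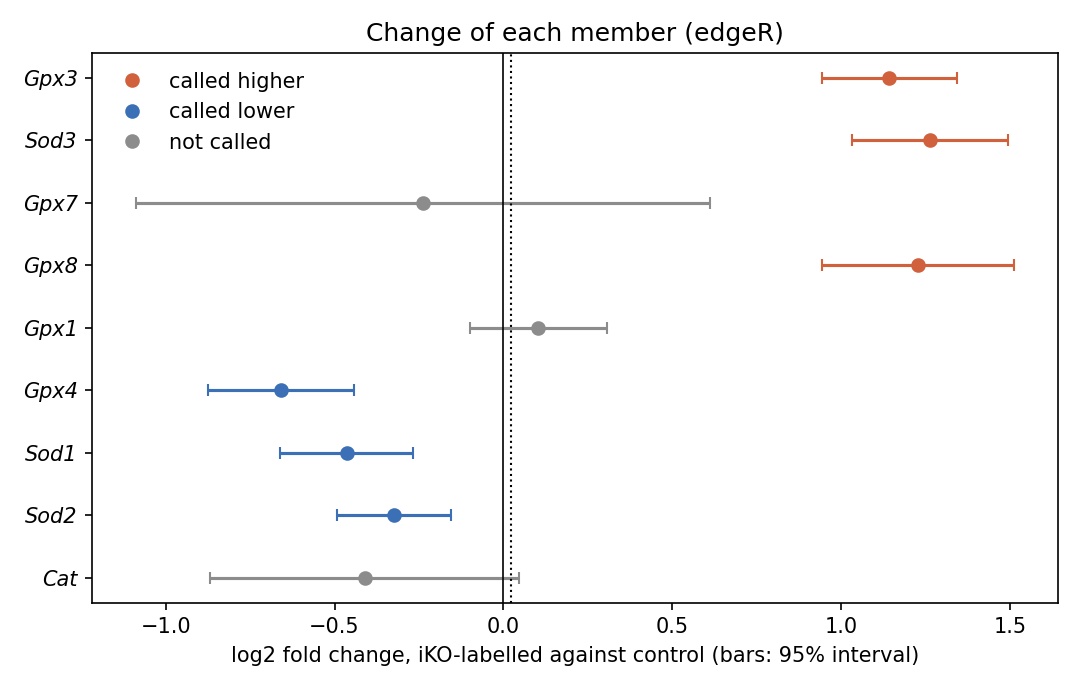
Log2 fold change of each gene, iKO-labelled against control, with 95% intervals; orange is called higher, blue called lower and grey not called, and the dotted line marks the median of all tested genes. Gpx3, Sod3 and Gpx8 lie above 1.1, and the intervals of Gpx4, Sod1 and Sod2 lie wholly below 0.

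Between genes, levels were compared per length with the deposited FPKM. In controls the order was Gpx3 at 1791 ± 183.3, Sod1 at 972.7 ± 25.4, Gpx1 at 103.5 ± 7.72, Gpx4 at 75.6 ± 2.22, Sod2 at 68.4 ± 3.72, Gpx8 at 51.9 ± 2.83, Cat at 19.5 ± 1.68, Sod3 at 18.2 ± 1.14 and Gpx7 at 9.77 ± 4.69 FPKM. Cat and Sod3 were the only neighbours whose control libraries overlapped. In iKO-labelled libraries Gpx3 was at 4002 ± 272.7, Sod1 at 712.7 ± 79.3, Gpx8 at 122.9 ± 17, Gpx1 at 112.4 ± 6.41, Sod2 at 55.2 ± 1.78, Gpx4 at 48.5 ± 3.95, Sod3 at 44.1 ± 3.22, Cat at 14.8 ± 4.12 and Gpx7 at 8.37 ± 1.82 FPKM. There Gpx8 overlapped Gpx1, and Gpx4 overlapped Sod3. By FPKM, Gpx8 therefore stood below Gpx4 and Sod2 in controls and above both in iKO-labelled libraries. The place of Sod1 and Sod2 depends on the length used: CPM over FPKM gives 0.658 kb for Sod1 and 3.90 kb for Sod2, while all annotated exons, a retained-intron transcript of Sod1 included, span 3.97 and 10.01 kb. Per kb of all annotated exons, Sod1 was at 162.1 ± 2.77 CPM and Sod2 at 26.8 ± 1.35 CPM per kb in controls, and Sod1 stood next to Gpx3. On that scale Sod1 was at 117.5 ± 12.9, Gpx8 at 120.7 ± 16.6 and Gpx1 at 113.9 ± 6.38 CPM per kb in iKO-labelled libraries, so the second place of Sod1 in the FPKM order there does not hold with this length.

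Set against each other, the extracellular genes stood higher relative to the intracellular ones in all 3 iKO-labelled libraries than in any control. Summed FPKM of Gpx3 and Sod3 over that of the other 7 gave 1.59, 1.23 and 1.36 in controls and 3.19, 3.88 and 4.34 in iKO-labelled libraries. The groups did not overlap; no test was made, because the genes were chosen with results of these data known. In CPM, the ratio was 2.59 ± 0.344 in controls and 6.85 ± 0.987 in iKO-labelled libraries. Gpx3 carries nearly all of the extracellular sum. In FPKM, Sod1 carries most of the intracellular sum, 972.7 of 1301 in controls and 712.7 of 1075 in iKO-labelled libraries. Per kb of all annotated exons the ratio was 4.09 ± 0.543 and 9.28 ± 1.42. The pairs shown, Gpx3 with Gpx1 and Sod1 with Sod3, moved likewise in FPKM. Gpx3 over Gpx1 went from 17.4 ± 2.69 to 35.8 ± 4.36, and Sod1 over Sod3 from 53.8 ± 4.69 to 16.3 ± 3.03. Per kb of all annotated exons, Sod1 over Sod3 went from 8.75 ± 0.763 to 2.65 ± 0.494. Not every pair moved so. Gpx3 did not gain on the intracellular Gpx8, which rose 2.34-fold, against 2.21-fold for Gpx3. Together, the 5 peroxidases summed to 2032 ± 179.8 FPKM in controls and 4294 ± 249.6 FPKM in iKO-labelled libraries, and the 3 dismutases to 1059 ± 27.1 and 812.0 ± 78.1 FPKM. These sums are mostly single genes: Gpx3 made up 88.1% and 93.2% of the first, and Sod1 91.8% and 87.7% of the second. The dismutase sum and the share of Sod1 depend on the gene lengths behind the FPKM.

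**Figure D3:**
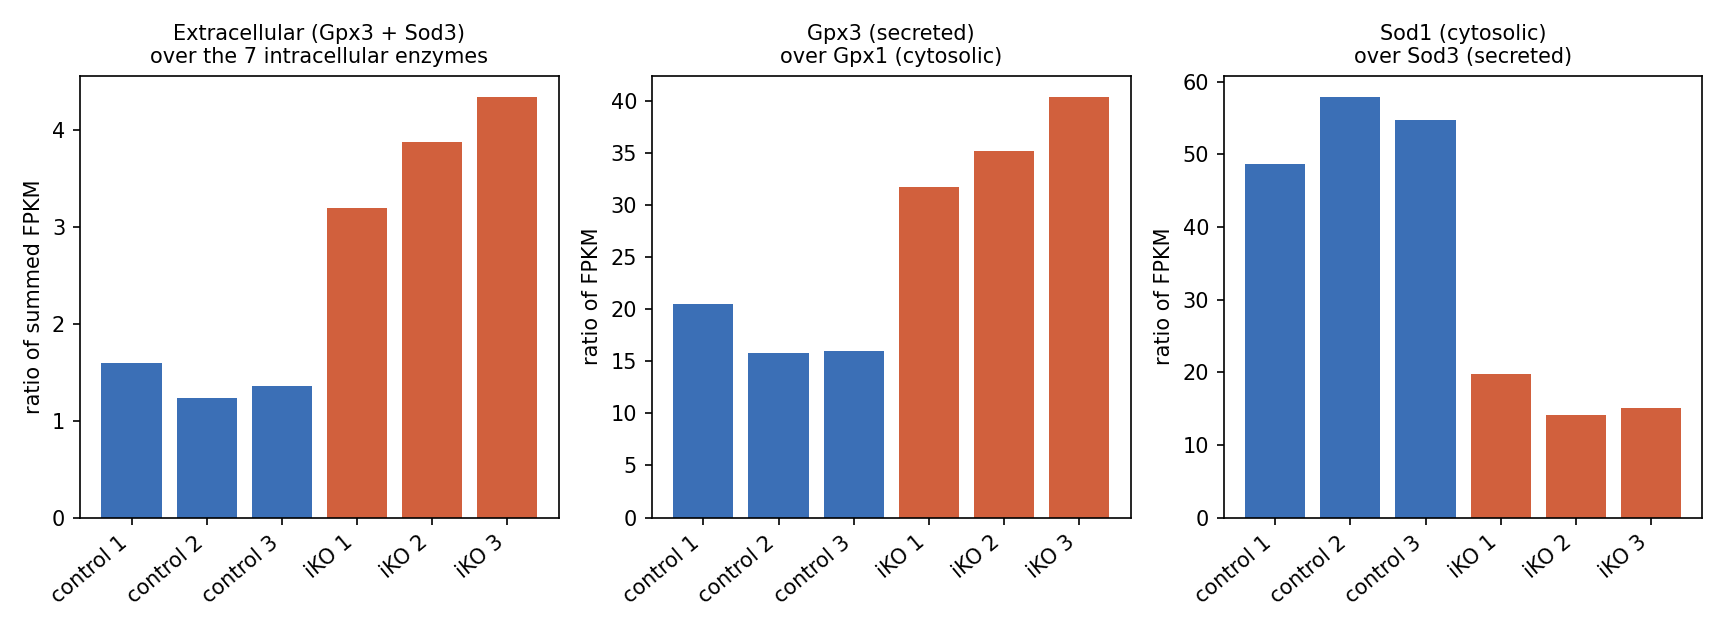
Ratios of deposited FPKM in each library: Gpx3 plus Sod3 over the 7 intracellular genes (left), Gpx3 over Gpx1 (middle) and Sod1 over Sod3 (right), with controls in blue and iKO-labelled libraries in orange. The left ratio is 1.23 to 1.59 in controls and 3.19 to 4.34 in iKO-labelled libraries, and the 2 other ratios are likewise separate between the groups.

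The remaining glutathione peroxidase genes of the mouse were near 0. Gpx2, Gpx5 and Gpx6 had 0 to 4 counts in each library, which is too few to test.

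Profiles over the 6 libraries were compared with those of Gpx3 and Sod3 among 8600 tested genes, by the root mean square difference of log2 CPM after centring each gene. Nearest to Gpx3 were Synpo2, an actin-binding protein (0.0714), Dop1a (0.0749), Tsc1, an inhibitor of mTORC1 (0.0855), the chromatin remodeller Chd2 (0.0900) and Leng8 (0.0935). Sod3 came sixth. Nearest to Sod3 were the interleukin-11 receptor gene Il11ra1 (0.0630), Dop1a (0.0927), Gpx3 itself (0.0944), the nuclear receptor coactivator Ncoa1 (0.113) and Alkbh4 (0.114). Gpx8 was 121st nearest to Gpx3 and 71st nearest to Sod3, and Gpx4 lay at 0.916 and 0.973. The 2 extracellular genes thus lay closer to each other than to the other 7. The distance includes the difference between groups, so it largely repeats the similar log2 fold changes of Gpx3 (1.14) and Sod3 (1.26). The neighbours named had log2 fold changes from 1.05 (Leng8) to 1.34 (Il11ra1). The pair was set with results of these data known, so its closeness is not separate evidence of a shared trait.

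Promoter windows from 250 bases before to 50 after the start were given by RefSeq (GRCm38.p6) for 8 of the 9 genes; Sod3 was not among them. Shown are 2 genes that rose, Gpx3 and Gpx8, and 1 that fell, Sod1, 5′ to 3′ on the gene's strand, with the antioxidant response element core in capitals where it was found.
Gpx3, chr11:54902604-54902903, plus strand: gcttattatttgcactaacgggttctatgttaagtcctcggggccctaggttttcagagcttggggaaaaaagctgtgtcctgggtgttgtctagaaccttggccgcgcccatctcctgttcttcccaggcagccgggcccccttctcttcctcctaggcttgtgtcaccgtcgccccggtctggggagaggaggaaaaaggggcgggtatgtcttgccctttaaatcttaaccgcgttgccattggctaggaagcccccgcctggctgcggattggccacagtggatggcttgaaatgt
Gpx8, chr13:113046339-113046638, minus strand: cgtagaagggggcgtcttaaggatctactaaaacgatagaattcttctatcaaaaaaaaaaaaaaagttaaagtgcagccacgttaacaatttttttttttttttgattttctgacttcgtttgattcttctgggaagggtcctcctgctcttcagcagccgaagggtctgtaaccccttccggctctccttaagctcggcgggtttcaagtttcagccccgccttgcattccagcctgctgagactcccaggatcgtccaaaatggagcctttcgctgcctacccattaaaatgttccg
Sod1, chr16:90220512-90220811, plus strand: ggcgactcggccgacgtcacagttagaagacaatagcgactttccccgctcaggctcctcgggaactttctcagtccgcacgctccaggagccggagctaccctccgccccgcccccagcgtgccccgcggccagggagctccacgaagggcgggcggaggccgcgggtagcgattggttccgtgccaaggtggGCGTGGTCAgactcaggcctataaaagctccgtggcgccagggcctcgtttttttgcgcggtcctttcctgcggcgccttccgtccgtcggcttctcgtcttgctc
Both strands were searched for TGACNNNGC, the core of the antioxidant response element bound by Nrf2, for the AP-1 site TGANTCA and for the E-box CANNTG. Among the 8 genes the first was found in 1, Sod1, where the reverse complement begins at -56 from the start; AP-1 was found in 0, and the E-box in 2, Gpx4 and Gpx7. The match in Sod1 overlapped no other motif. Over 27025 promoters of the same length, 1 per gene, the shares were 12.5%, 7.93% and 72.1%. Gpx4 had more than 1 window and all were searched, so its E-box match is not directly comparable with these shares. A match is a description of letters, not of a site in use.

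Enzymes of this group depend on glutathione, selenium and metals, and the genes that supply these were counted list by list. For glutathione synthesis and recycling, 11 of 12 genes were tested, and their median was -0.34. Of these 4 fell and 0 rose (36.4% called, against 20.4% of all tested genes). At an unadjusted p under 0.05, edgeR had 1 of these genes higher, and DESeq2 called 1 higher. Chac1, which breaks glutathione down, fell from 133.7 ± 24.1 to 53.5 ± 2.55 CPM, a log2 fold change of -1.32 ± 0.14 (edgeR adjusted p = 0.000683). Gsr, the reductase that restores glutathione after a peroxidase has used it, fell by 0.97 ± 0.11 (adjusted p = 0.000903). Gclm, the modifier subunit of the first synthetic enzyme, fell by 0.79 ± 0.11 (adjusted p = 0.00247). The fourth, the cystine importer Slc7a11, was outside the naming rule and fell by 0.59 (adjusted p = 0.0226); its call was lost without control 1 or 2, without iKO-labelled library 1 or 2, and with library totals.

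For selenium, all 10 genes listed as selenocysteine machinery were tested, and their median was 0.14. Not all of them insert selenocysteine, as the receptor Lrp8 is among them. Of these 10 genes, 3 fell and 1 rose (40% called, against 20.4% of all tested genes). Sephs2, which makes selenophosphate, fell from 101.5 ± 3.42 to 56.1 ± 2.17 CPM, -0.86 ± 0.096 on the log2 scale (edgeR adjusted p = 0.000843). Lrp8, a receptor for selenoprotein P, fell by 1.21 ± 0.18 (adjusted p = 0.00336), and Eefsec, the elongation factor for selenocysteine, by 1.33 ± 0.21 (adjusted p = 0.00403). The riser, Trnau1ap, is outside the naming rule, at 0.55 (adjusted p = 0.0129), and lost its call without iKO-labelled library 2. Selenoproteins other than the peroxidases numbered 18 tested of 19, with a median of -0.30. Of these 8 fell and 2 rose (55.6% called, against 20.4% of all tested genes). Sephs2 is on both lists. Txnrd1, the cytosolic thioredoxin reductase, fell from 2240 ± 38.7 to 1110 ± 106.4 CPM, a log2 fold change of -1.01 ± 0.076 (edgeR adjusted p = 0.000165). Selenoh fell by 2.37 ± 0.27 (adjusted p = 0.000923). The 2 risers, Selenok (0.29) and Selenoo (0.60), are outside the rule, and each lost its call when any of controls 1 to 3 or iKO-labelled libraries 2 or 3 was left out, as Selenoo also did without iKO-labelled library 1. Selenoproteins thus did not move as 1: Gpx3 rose, Gpx1 was not called, and Gpx4, Txnrd1 and Selenoh fell.

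Copper and manganese supply to the dismutases was called for 1 of 9 genes higher and 0 lower (11.1%, against 20.4% of all tested genes), with a median of 0.31. That gene was Slc39a14, a manganese and zinc importer, at 0.41 ± 0.090 on the log2 scale (edgeR adjusted p = 0.0164); the call was lost without control 3 or iKO-labelled library 2. At an unadjusted p under 0.05 edgeR had 1 lower, and DESeq2 and limma-voom each called 1 lower. Slc11a2, a divalent metal transporter, was at -0.36 ± 0.11 (adjusted p = 0.0545), and Atp7a, the copper pump that loads Sod3, at 0.43 ± 0.14 (adjusted p = 0.0703). Ccs, the copper chaperone of Sod1, is outside the rule and was not called (-0.21, adjusted p = 0.585).

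Of 15 genes that make superoxide or peroxide, 13 were tested: 1 rose, 1 fell (15.4% called, against 20.4% of all tested genes), and the median was 0.34. At an unadjusted p under 0.05 edgeR had 3 higher and 1 lower, and DESeq2 called 2 higher and 1 lower. Poldip2, a partner of the oxidase Nox4, fell by 0.51 ± 0.10 (edgeR adjusted p = 0.0115). Maob, the mitochondrial amine oxidase, rose by 0.76 ± 0.20 (adjusted p = 0.0343), a call that was lost without any 1 of the 3 controls or without iKO-labelled library 2 or 3.

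In the ER, where Gpx7 and Gpx8 act, 9 genes of oxidative folding had a median of -0.55. Of these 6 fell and 0 rose (66.7% called, against 20.4% of all tested genes). The count of risers was also 0 at an unadjusted p under 0.05 and by DESeq2 and limma-voom. Pdia6 fell from 530.0 ± 22.4 to 320.6 ± 14.9 CPM, -0.73 ± 0.069 on the log2 scale (edgeR adjusted p = 0.000465). Pdia4 fell by 1.32 ± 0.13 (adjusted p = 0.000566); both are disulfide isomerases. Prdx4, the ER peroxiredoxin that removes the same peroxide as Gpx8, fell by 1.01 ± 0.11 (adjusted p = 0.000846). Gpx8 rose where these fell.

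Peroxisome genes, the setting of catalase, had 3 of 15 higher and 0 lower (20% called, against 20.4% of all tested genes), with a median of 0.33; edgeR at an unadjusted p under 0.05, DESeq2 and limma-voom also had 0 lower. Pex16, which helps build the membrane, rose by 0.88 ± 0.18 (edgeR adjusted p = 0.0107). Pex5, the import receptor for peroxisomal enzymes, rose by 0.47 ± 0.12 (adjusted p = 0.0271), and Pex19, the chaperone of membrane proteins, by 0.41 ± 0.11 (adjusted p = 0.0314). Pex5 lost its call without control 1 or 2 or iKO-labelled library 2 or 3, and Pex19 without any 1 library other than control 2. Without control 1 or iKO-labelled library 2 or 3 the count was 1.

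Lipid peroxides, which Gpx4 removes, are formed and limited by genes of which 9 of 11 were tested, and their median was -0.24. Of these 4 fell and 0 rose (44.4% called, against 20.4% of all tested genes). By DESeq2 1 was called higher, and edgeR at an unadjusted p under 0.05 had 0 higher. Acsl4, which loads polyunsaturated fatty acids for membrane lipids and so feeds peroxidation, fell from 295.1 ± 27.3 to 155.1 ± 11.8 CPM, -0.93 ± 0.097 on the log2 scale (edgeR adjusted p = 0.000616). Lpcat3, the next enzyme on that path, fell by 0.97 ± 0.15 (adjusted p = 0.00339). Vkorc1l1, a vitamin K reductase, fell by 0.75 ± 0.20 (adjusted p = 0.0308), and Dhodh, outside the rule, by 0.66 (adjusted p = 0.0357). Vkorc1l1 lost its call without any 1 library other than control 2, and Dhodh without any 1 library other than control 1 or iKO-labelled library 1; both lost it with library totals. Without control 3 or iKO-labelled library 2 or 3 the count was 2. Gpx4 and Acsl4, which act in opposite directions on lipid peroxides, were thus both lower.

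**Figure D4:**
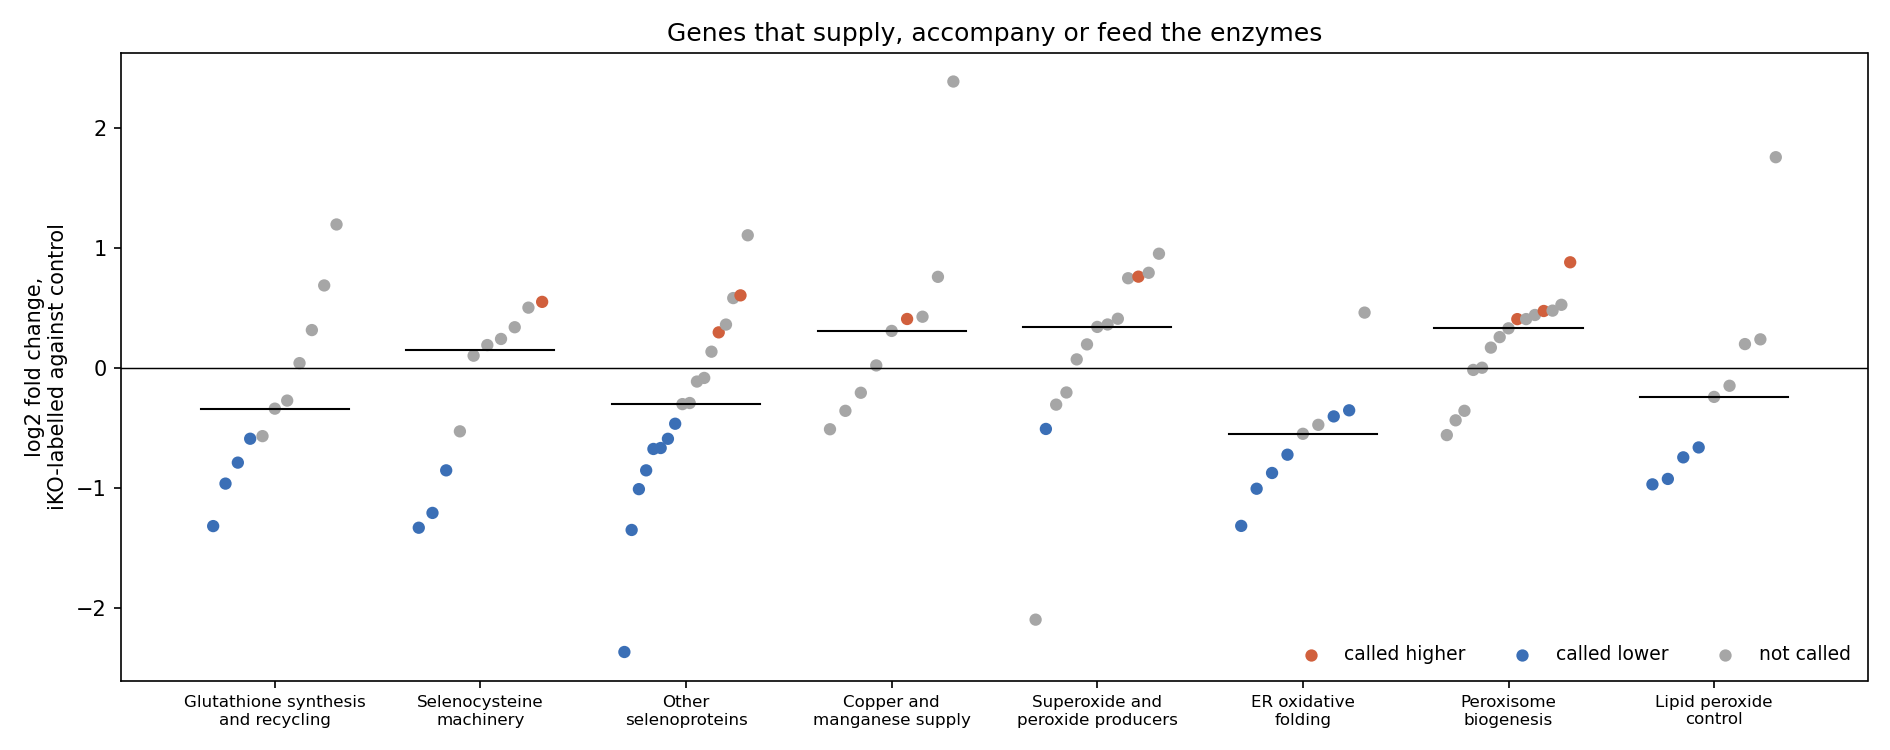
Log2 fold change, iKO-labelled against control, of every tested gene in 8 lists, ordered by value within each list; orange is called higher, blue called lower, grey not called, and the black line is the list's median. ER oxidative folding has the lowest median, -0.55, and superoxide and peroxide producers the highest, 0.34.

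Markers of other cell types were read beside these results. Satellite cell markers were all 12 measured, at 10058 to 10566 CPM in sum in controls and 12566 to 13195 CPM in iKO-labelled libraries. Of these 7 were higher and 4 lower (91.7% called, against 20.4% of all tested genes). Sdc4 weighed most in the sum, at 3911 CPM in controls and 6087 CPM in iKO-labelled libraries. The 4 lower, outside the naming rule, were Itga7 (-0.68), Myf5 (-0.62), Met (-0.59) and Des (-0.37), so the list went both ways. Fibro-adipogenic cells also make Gpx3 and Sod3: their 10 markers summed to 2060 to 2504 CPM in controls and 1870 to 2303 CPM in iKO-labelled libraries, and 0 of 9 tested were called, with 1 higher at an unadjusted p under 0.05 and 1 called higher by DESeq2. Their most abundant markers were Gsn, Col3a1 and Dcn, at log2 fold changes of -0.09, -0.11 and -0.45. In controls these were at 1289, 582.2 and 201.1 CPM. Gsn and Col3a1 thus made up most of the sum, which says little about the less abundant markers. Lum, outside the naming rule and singled out after its values were seen, was the gene with an unadjusted p under 0.05, at 23.0 CPM in controls and 34.2 CPM in iKO-labelled libraries with groups that did not overlap (edgeR adjusted p = 0.12). Pdgfra, the defining receptor, also outside the rule, was at 2.95 and 4.40 CPM with overlapping groups. Macrophage markers summed to 189.0 to 278.6 and 188.1 to 319.4 CPM, with 0 of 10 called. Neutrophil markers summed to 3.44 to 9.88 and 5.40 to 8.76 CPM, and 5 of 8, Ly6g among them, had means under 1 CPM. Endothelial markers summed to 63.3 to 186.8 and 94.9 to 122.1 CPM, and tenocyte markers to 52.1 to 172.4 and 78.6 to 180.4 CPM, with 0 called in either. Erythroid markers, which matter because red cells are rich in Cat and Gpx1, summed to 3.59 to 8.20 and 5.92 to 17.8 CPM. T, NK and B cell markers summed to 1.82 to 3.53 and 1.96 to 4.10 CPM, with Nkg7 at 0, and Schwann cell markers to 24.5 to 49.8 and 20.7 to 34.4 CPM. Those 5 lists had 0 called by edgeR or DESeq2, and the same holds for macrophages and neutrophils. At an unadjusted p under 0.05 the tenocyte and Schwann lists had 1 lower each and the other 5 had 0. By edgeR only 1 of 7 T, NK and B cell, 4 of 7 erythroid and 5 of 8 neutrophil markers were tested. A count of 0 called says little for those lists. Mural cell markers summed to 320.8 to 422.4 and 199.3 to 300.8 CPM, and 1 of 7, Acta2, fell (-2.24). Acta2 went from 197.4 CPM in controls to 41.9 CPM in iKO-labelled libraries. The other mural markers that the rule names overlapped between groups, Notch3 at 100.1 and 131.5 CPM and Rgs5 at 51.3 and 51.6 CPM. Myofibre markers summed to 15.2 to 66.6 and 12.1 to 17.5 CPM, and 1 of 6 tested, Acta1, fell (-1.84), a call lost without any 1 library other than control 3. The part of the satellite and mural cell markers in these results was not tested.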

How the data were processed

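The authors deposited raw read counts per gene and FPKM for 6 libraries made by Smart-Seq2, which does not mark strand, per the labels' protocols. Trim Galore, STAR, featureCounts, Subread, DESeq2 and mm10 (GRCm38) are named in the submitters' processing notes, without versions or roles. Ratios of counts to the deposited FPKM show scaling by median-of-ratios factors. Unnamed rows (551 of 46078, at most 0.123% of counts) were left out.

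Counts were fitted in R 4.3.3 with edgeR 4.0.16 (filterByExpr, minimum count 10, minimum total 15; TMM; quasi-likelihood test, group only), with Benjamini-Hochberg adjustment over 16252 genes and calls at 0.05. CPM are relative to TMM-scaled library sizes. SE is the fold change over the root of F. The test was tested on simulated data. Alternatives used limma 3.58.1, DESeq2 1.42.0, other scalings, filters and left-out libraries. Positions are from GENCODE M21.

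The genes, lists and rule for named genes were chosen with earlier results of these data known. The rule names all 9 genes, Paxbp1 and Pax7, in each supply list up to 3 genes with the smallest adjusted p, the 5 nearest profiles to Gpx3 and to Sod3, and the most abundant markers, not all of which are printed. Values of 1 gene that the rule names are not reported here. Annotated exon lengths were tried after seeing the data.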

Additional observations from a re-analysis of the deposited data

How the results depend on the processing

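Gpx3 (1.07 to 1.28), Sod3 (1.21 to 1.40) and Gpx8 (1.12 to 1.36, all log2 fold changes) kept their direction and call under all 19 alternatives. Sod2 lost its call with library totals (-0.19), with the replicate number as a block (-0.32, adjusted p = 0.0648) and without control 2 or iKO-labelled library 2 or 3; over all 6 left-out libraries it ran from -0.35 to -0.28. Against a 1.5-fold change, Gpx4 (-0.66), Sod1 (-0.46) and Sod2 (-0.32) were not called, so 0 of the 9 were lower; that test asks for more than a nonzero change. Gpx7 turned to 0.19 without control 3 (-0.53 to 0.19 over the left-out libraries), and Cat, with -0.66 to -0.27, was called without iKO-labelled library 1. Genes called higher over the whole table numbered 1324, against 2065 by DESeq2, 322 against a 1.5-fold change (495 lower), 813 with the replicate block and 706 to 1159 with 1 library left out; with fewer libraries the test has less information, and otherwise the cause was not tested. With library totals 57.2% of called genes were higher, against 39.9%, and the median of all genes moved by 0.13. The log2 gain of extracellular over intracellular genes, 1.40 in CPM, was 1.18 per kb of all annotated exons, which give Sod1 and Sod2 less weight. Same-numbered libraries of the 2 groups showed no shared deviation (correlations -0.067, -0.0021 and -0.059 across genes). The deviations are from group means of only 3 libraries, so these values cannot exclude that the numbers pair the libraries. No sign changed among 759 values of 40 other named genes; 91 lost a call and 11 gained one. Depth limits Gpx7, at 182 to 503 counts per library.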
